A study of Mus musculus with 2 samples.

Results

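The type 2 lymphoid program was followed through 7 genes, Gata3, Il1rl1, Il17rb, Il5, Il13, Areg and Il4, of the 32285 genes counted in CD45+ cells of the mouse adrenal gland. The genes were chosen by name as a program, and each was read in innate lymphoid cells (ILCs), T cells, NK cells, mast cells and macrophages. Live CD45+ cells, that is all leukocytes, were sorted from adrenal glands freed of surrounding fat, from C57BL/6 mice aged 7 weeks. They were profiled with the droplet-based 10x 3' assay, as 1 library of female mice and 1 library of male mice. The number of animals pooled in each library was not given in the sources used here, and sex and library cannot be told apart. No p-value is therefore given, and every interval below is a 95% interval that covers counting error only.

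Type 2 lymphoid cells respond to alarmins, cytokines that stressed tissue cells release. The transcription factor GATA3 sets up their identity, the receptors ST2 (gene Il1rl1, for IL-33) and IL-17RB (for IL-25) sense the alarmins, and activation leads to secretion of IL-5, IL-13, amphiregulin and, mainly from T cells, basophils and mast cells, IL-4. ST2 is shared with mast cells and some regulatory T cells.

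The female library held 3963 barcodes and 16218309 unique molecular identifiers (UMIs, each a counted transcript molecule), and the male library 2685 barcodes and 9512670 UMIs. After filtering, 3693 female and 2450 male cells remained, and the libraries shared 2 barcode sequences. Cells were gated on canonical markers, none of which was one of the 7 genes. The gates gave 58 female and 42 male ILCs, 627 and 344 T cells, 766 and 318 NK cells, 25 and 6 mast cells, and 786 and 816 macrophages. B cells (495 and 263), which should lack the program, served as the background class, and 645 female and 455 male cells entered no gate.

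The ILC gate asked for at least 3 of 10 ILC markers and no more than 1 marker each of T, NK and B cells. Among its markers, Il7r was detected in 84.5% of female and 85.7% of male gated ILCs, and Id2 in 94.8% and 92.9%. The other markers were lower, for instance Rora (51.7% and 35.7%), Thy1 (41.4% and 26.2%), Icos (20.7% and 26.2%) and Hlf (17.2% and 14.3%). Because the gate asked for these markers, their detection was partly set by it. All 10 summed to 5881 and 4165 CPM, against 2411 and 2557 CPM in T cells. Genes of other ILC groups were at 0 or low. The gate's limit on NK markers can itself lower genes shared with NK cells, such as Ncr1, so their counts are no independent check. Il23r, Il22, Il17a, Il17f and Ccr6 had 0 UMIs in both libraries, and of 3 genes of group 1 ILCs Ncr1 had 6 and 2, Itga1 1 and 2, and Tbx21 3 and 0 UMIs. These 3 summed to 61.3 and 32.4 CPM, against 1178 and 1255 CPM in NK cells, 93.5 and 137 CPM in T cells and 8.09 and 12.1 CPM in macrophages. The list of 8 NK cell genes summed to 141 CPM in female and 16.2 CPM in male gated ILCs, against 45.4 and 28.6 CPM in macrophages. Nmur1, a receptor of group 2 ILCs, had only 1 and 0 UMIs, so it did not mark these cells at this depth. The list of 8 T cell genes summed to 29 female and 17 male UMIs in the gate, or 178 and 138 CPM, against 266 and 262 CPM in NK cells, 25.9 and 17.1 CPM in B cells and 11.5 and 10.7 CPM in macrophages. Of this list, Cd5, Cd6 and Cd8b1 were at 0 in both libraries, Cd3e in the female library only and Cd3d in the male library only, and the part of T or NK cells in the ILC levels was not tested. Of 7 mast-cell genes, Mcpt4, Cma1, Tpsb2, Tpsab1 and Mrgprb1 were at 0 in the gated ILCs of both libraries. The other 2, Cpa3 (8 and 3 UMIs) and Kit (7 and 12 UMIs), brought the list to 15 UMIs in each library, or 92.0 and 122 CPM, against 7.36 and 7.87 CPM in T cells and 102 and 99.0 CPM in NK cells.

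GATA3 binds DNA at GATA motifs, and the promoters of 3 members are shown for this reason, those of the receptor gene Il1rl1 and of the cytokine genes Il13 and Il5. RefSeq (build GRCm38.p6) had promoter entries for all 7 genes, with 9 start sites. Each run holds the 250 bases before the start site, 5′ to 3′ on the strand of the gene, and capitals mark a GATA motif, the letters GATAA or GATAG preceded by A or T, on either strand. Il1rl1 has an upstream start (chr1:40429320-40429569, plus strand) and a downstream start (chr1:40439379-40439628, plus strand). Il13 (chr11:53634703-53634952) is on the minus strand and Il5 (chr11:53720544-53720793) on the plus strand.
Il1rl1 upstream start: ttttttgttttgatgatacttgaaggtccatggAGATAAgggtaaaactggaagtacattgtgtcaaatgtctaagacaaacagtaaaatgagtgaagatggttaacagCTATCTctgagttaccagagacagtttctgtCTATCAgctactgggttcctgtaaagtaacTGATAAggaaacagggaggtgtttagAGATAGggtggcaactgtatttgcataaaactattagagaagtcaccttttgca
Il1rl1 downstream start: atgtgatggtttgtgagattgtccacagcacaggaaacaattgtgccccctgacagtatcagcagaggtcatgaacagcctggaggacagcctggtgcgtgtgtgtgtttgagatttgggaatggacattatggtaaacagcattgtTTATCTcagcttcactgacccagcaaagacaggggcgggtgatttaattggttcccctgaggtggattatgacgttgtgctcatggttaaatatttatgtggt
Il13: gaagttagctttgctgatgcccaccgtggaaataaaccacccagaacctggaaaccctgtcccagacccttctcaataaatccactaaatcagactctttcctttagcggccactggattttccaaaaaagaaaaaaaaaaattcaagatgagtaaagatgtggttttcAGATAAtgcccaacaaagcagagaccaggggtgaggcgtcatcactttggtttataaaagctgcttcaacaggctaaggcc
Il5: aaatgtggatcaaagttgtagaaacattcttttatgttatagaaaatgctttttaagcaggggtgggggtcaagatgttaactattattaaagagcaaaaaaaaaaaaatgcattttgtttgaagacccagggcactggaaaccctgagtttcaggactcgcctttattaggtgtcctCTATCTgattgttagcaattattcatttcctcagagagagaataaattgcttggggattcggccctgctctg
The window before the upstream Il1rl1 start held 5 matches, a number reached by 0.0426% of the 32851 RefSeq windows of this length. The downstream start, Il13, Il5 and 1 of the 2 Il4 starts held 1 match each, as compared with 26.5% of all windows that held at least 1. Gata3, Il17rb, Areg and the other Il4 start held none. A match is a run of letters and not a measured binding site, and 3' counts do not tell which start a transcript used.

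Gata3 (ENSMUSG00000015619; chromosome 2, 9857078 to 9890034, minus strand), the transcription factor of the program, was highest in ILCs in both libraries. The 58 female ILCs held 117 UMIs, or 717 CPM (UMIs per 1000000 UMIs of the class; interval 593 to 860), and the 42 male ILCs held 93 UMIs, or 754 CPM (608 to 923). T cells held 263 UMIs (96.8 CPM) in the female and 143 (102 CPM) in the male library, and NK cells 258 (73.1 CPM) and 160 (95.5 CPM). The level in ILCs was thus 7.41 times that in T cells in the female library (5.91 to 9.25) and 7.36 times in the male library (5.61 to 9.63). Against NK cells the ratios were 9.81 (7.82 to 12.3) and 7.89 (6.05 to 10.3). Macrophages held 2 and 6 UMIs, and mast cells held 0 in both libraries, which allows up to 42.1 CPM in the 25 female and 188 CPM in the 6 male mast cells. In B cells, 11 UMIs were found in 2 female cells and 0 in the male library.

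ILCs also had a higher share of cells with Gata3 than T, NK and B cells when each cell was reduced to 1000 randomly drawn UMIs, which puts classes of different depth on one footing. At least 1 Gata3 UMI was then seen in 51.7% of 58 female and 43.9% of 41 male ILCs. The shares were 8.15% and 6.78% of T cells, 5.81% and 9.46% of NK cells, and 0 of 478 and 0 of 249 B cells, which allows up to 0.628% in the female library. T cells and NK cells thus stood in the opposite order in the male library after the draw, with overlapping intervals (4.35% to 10.0% and 6.48% to 13.2%). None of 18 female and 4 male mast cells deep enough for the draw had a Gata3 UMI, which allows up to 16.7% and 75%, so male mast cells and ILCs could not be ranked. Without the draw, 74.1% and 73.8% of ILCs had a UMI, at median depths of 2263.5 and 2637.5 UMIs per cell, against 0.404% of female and 0 of 263 male B cells at median depths of 2186 and 1779.

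**Figure D1:**
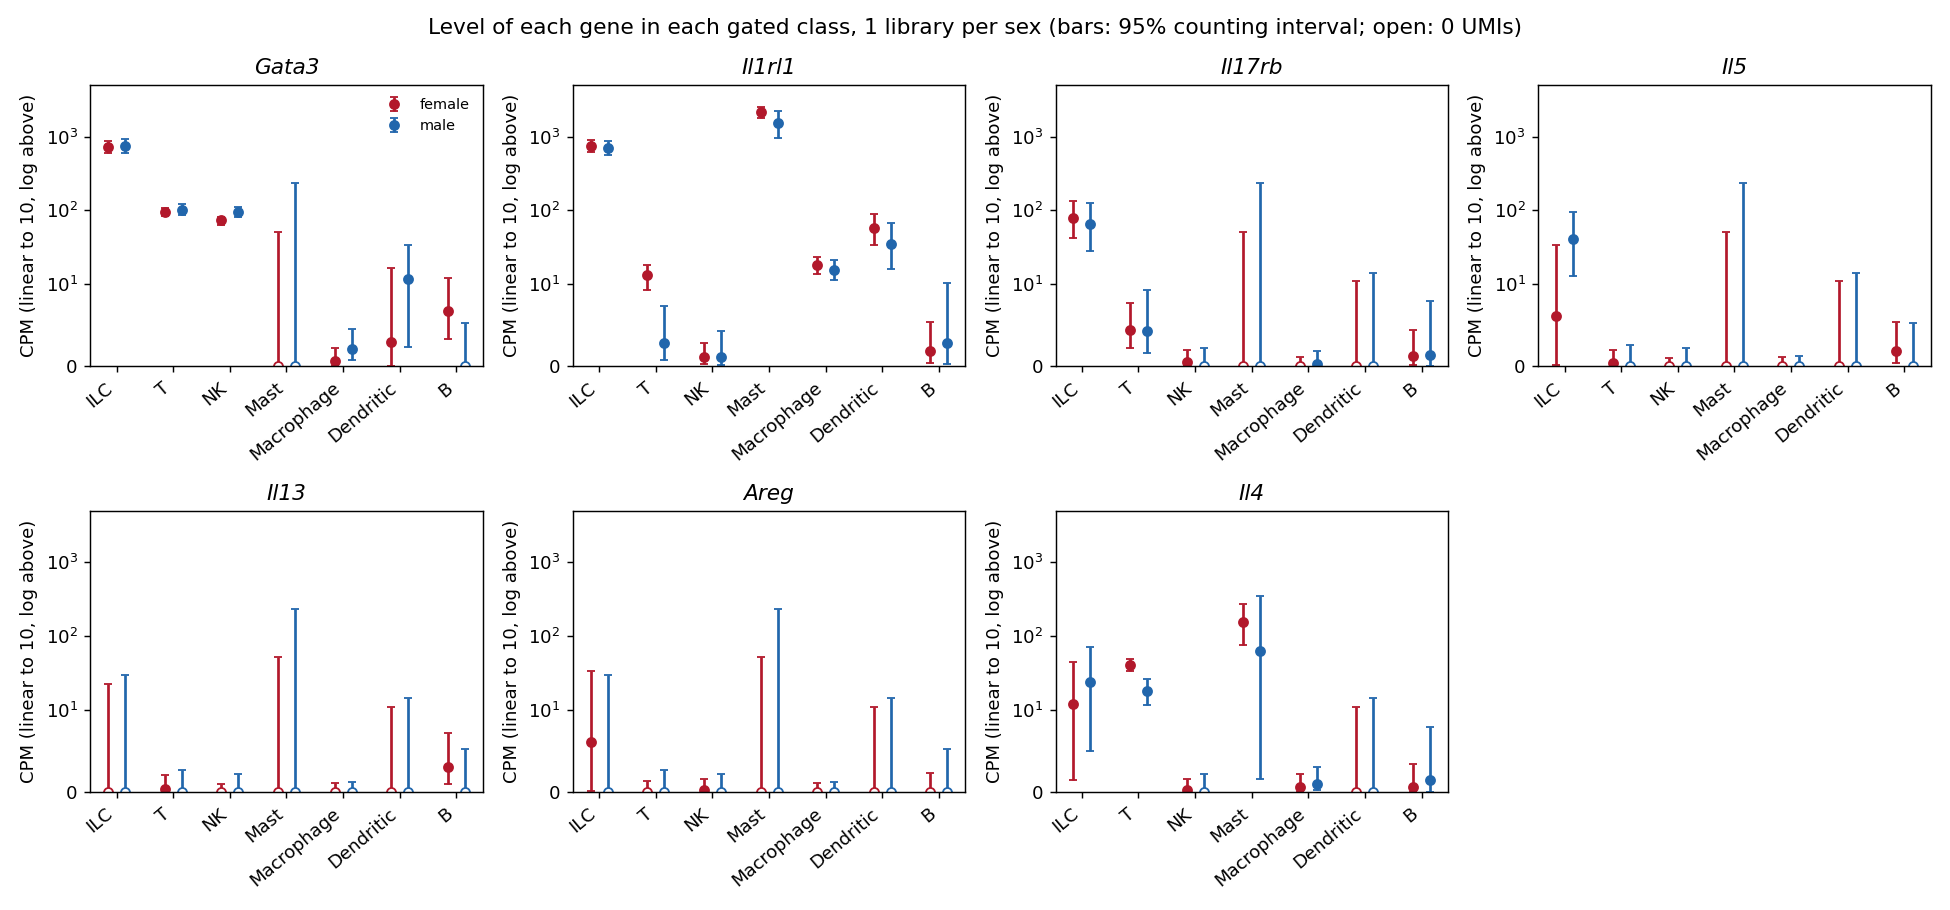
Level of each of the 7 genes in 7 gated classes, in CPM (linear to 10, logarithmic above), with 1 point per library (red, female; blue, male), bars for the 95% counting interval and open points for 0 UMIs. Gata3 was highest in ILCs of both libraries, Il17rb was highest in female ILCs and had 0 UMIs in mast cells, Il1rl1 was highest in mast cells (2121 and 1507 CPM), and Il13 and Areg stayed at or near 0 in every class.

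Within the T cell gate, Gata3 was unevenly spread. Gamma delta T cells were gated T cells with a UMI of Trdc or Tcrg-C1 and none of Cd4, Cd8a, Cd8b1 or Foxp3. Cells with Trac were not excluded, so this subset does not establish the lineage. CD4 T cells held 142 CPM in both libraries and gamma delta T cells 143 and 118 CPM, whereas CD8 T cells held 45.3 CPM (female) and 54.7 CPM (male). Within the NK gate, cells with Itga1 and without Eomes held 83.2 and 105 CPM, and cells with Eomes and without Itga1 held 66.7 and 80.9 CPM, with counting intervals that overlapped in each library. All of these subsets lay below the ILC level. The gene 9230102O04Rik overlaps Gata3 on the same strand, so reads in the shared part cannot be assigned with certainty.

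Il1rl1 (ENSMUSG00000026069; chromosome 1, 40429570 to 40465415, plus strand), which encodes the IL-33 receptor ST2, was highest in mast cells and next in ILCs. Mast cells held 151 UMIs in 23 of 25 female cells, or 2121 CPM (1796 to 2487), and 24 UMIs in 6 of 6 male cells, or 1507 CPM (966 to 2243). ILCs held 123 UMIs in 45 of 58 female cells, or 754 CPM (627 to 900), and 87 UMIs in 33 of 42 male cells, or 705 CPM (565 to 870). Mast cells exceeded ILCs 2.81-fold (2.20 to 3.60) in the female and 2.14-fold (1.30 to 3.39) in the male library. The mast gate included all 6 female and 1 male cells with at least 2 basophil markers. Without them, Il1rl1 was 1929 CPM in the other 19 female and 1778 CPM in the other 5 male cells. Markers of neutrophils summed to 125 UMIs in female and 2 UMIs in male mast cells, and their part in these levels was not tested.

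Elsewhere Il1rl1 was low. Macrophages held 18.3 CPM (59 UMIs in 44 cells) in the female and 15.9 CPM (46 UMIs in 32 cells) in the male library, and ILCs exceeded them 41.1-fold (29.9 to 57.1) and 44.5-fold (30.8 to 65.0). Dendritic cells held 57.4 CPM (19 UMIs) and 35.2 CPM (9 UMIs). NK cells held 4 and 2 UMIs, and B cells 3 and 2 UMIs. T cells held 36 UMIs in 14 female cells (13.2 CPM) and 4 UMIs in 4 male cells (2.86 CPM). None of these T cell UMIs fell in the 10 female and 4 male regulatory T cells that could be gated, which is too few cells to detect a low level.

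Among macrophages, Il1rl1 was read in small subsets and in a larger group called the remaining macrophages here. The Lyve1-high, Aldh1a2-high and remaining groups had 41, 30 and 709 of 786 female cells. In the male library they had 98, 50 and 659 of 816 cells. A few macrophages of each library thus lay in none of these groups, and which lists they met is not given here. Aldh1a2-high macrophages were those with at least 3 of 6 genes of a list that names Aldh1a2, Retnla, Fn1, Ear2, Fcrls and Lyz1. These macrophages held 147 CPM (93.2 to 221; 15 of 30 cells) in the female and 85.7 CPM (52.4 to 132; 11 of 50 cells) in the male library. Lyve1-high macrophages held 61.9 CPM (24.9 to 128) and 31.0 CPM (12.5 to 64.0), from 7 UMIs in each library. The remaining macrophages held 7.89 CPM (5.00 to 11.8) and 7.06 CPM (4.11 to 11.3), so the CPM intervals of both the Aldh1a2-high and the Lyve1-high macrophages lay above those of the remaining macrophages in each library, and overlapped each other. The Aldh1a2-high group nevertheless held only 23 of the 59 female and 20 of the 46 male macrophage UMIs, and a few UMIs lay in cells of none of the groups. In the male library 14 of these 20 lay in 5 cells, without which the level was 30.0 CPM. Without its top 5 cells, the Lyve1-high subset fell to 0 CPM in the female and 9.63 CPM in the male library, the latter within the interval of the remaining macrophages. After the draw, the male shares of 6.25% (1.31% to 17.2%) in Aldh1a2-high and 0.885% (0.288% to 2.05%) in the remaining macrophages overlapped in their intervals, whereas the female shares of 17.2% (5.85% to 35.8%) and 0.758% (0.246% to 1.76%) did not. The Lyve1-high shares were 8.57% (1.80% to 23.1%) and 3.37% (0.701% to 9.54%), of which the male one overlapped the remaining macrophages. The median depth was 3804.5 and 3849.5 UMIs in Aldh1a2-high, 1947 and 1994.5 in Lyve1-high and 3704 and 2810 UMIs in the remaining macrophages. The macrophage gate allowed at most 1 dendritic marker per cell, and the part of dendritic cells in this level was not tested.

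Il17rb (ENSMUSG00000015966; chromosome 14, 29996135 to 30008896, minus strand), which encodes a subunit of the IL-25 receptor, was sparse and found mainly in ILCs and T cells, at a higher level in ILCs. ILCs held 13 UMIs in 7 of 58 female cells, or 79.7 CPM (42.4 to 136), and 8 UMIs in 5 of 42 male cells, or 64.8 CPM (28.0 to 128). T cells held 12 and 6 UMIs, or 4.42 and 4.29 CPM, and the other classes in the comparison held at most 2 UMIs per library. Mast cells held 0 UMIs, which allows up to 42.1 CPM in the female and 188 CPM in the male library, so the male ILC level could not be ranked against mast cells. ILCs exceeded T cells 18.1-fold (7.60 to 43.3) in the female and 15.1-fold (4.59 to 52.8) in the male library. After drawing 1000 UMIs, 1 of 58 female and 3 of 41 male ILCs kept a UMI, and a draw made without doublet removal kept one in 4 of 58 female ILCs, so the share moved with the draw. The ILCs with an Il17rb UMI were deeper than those without, with medians of 3259 against 2198 UMIs in the female and 5314 against 2627 UMIs in the male library. Actr8 overlaps Il17rb on the opposite strand, and whether counting used strand was not given in the sources used here.

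**Figure D2:**
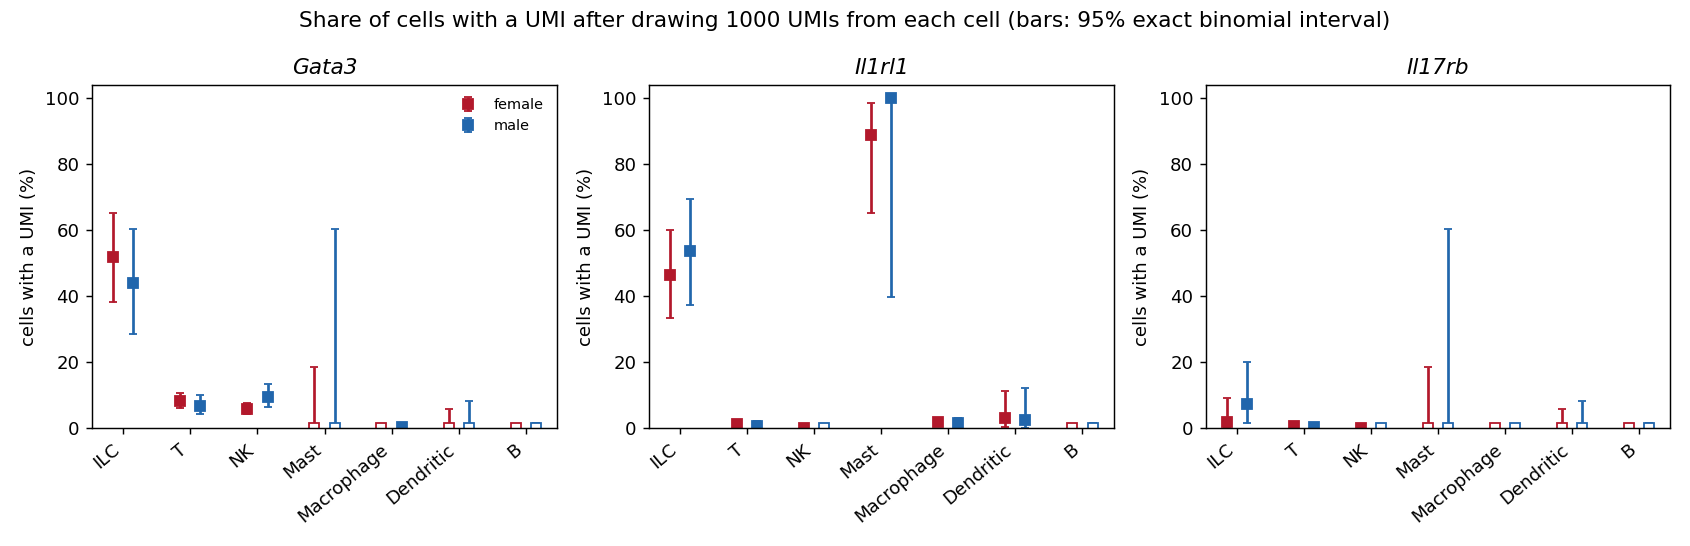
Share of cells (in percent) with at least 1 UMI of Gata3, Il1rl1 or Il17rb after 1000 UMIs were drawn from each cell, for 7 gated classes, with 1 point per library and bars for the exact binomial 95% interval. Gata3 was seen in 51.7% and 43.9% of ILCs, and Il1rl1 in 88.9% of 18 female and in all 4 male mast cells deep enough for the draw.

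Read against all genes, a higher level in ILCs was uncommon. A gene was counted as higher in ILCs where its CPM was at least 4 times that of the other class in both libraries, among genes with at least 10 UMIs over the pair in each library, and with a count under 3 UMIs in the other class set to 3. By this rule 1.25% of 8487 genes were higher in ILCs than in T cells, 1.15% of 9061 were higher than in NK cells and 2.71% of 10034 were higher than in macrophages. The members counted were 3 of 4 tested against T cells (Gata3, Il1rl1 and Il17rb), 2 of 2 against NK cells and 2 of 2 against macrophages. Il1rl1 against NK cells (4 and 2 UMIs there) and Gata3 against macrophages (2 and 6) reached 10 UMIs only through ILCs. So did Il1rl1 (4 UMIs) and Il17rb (6) against T cells in the male library. ILCs hold far fewer UMIs in all than these classes, so in these cases the filter fixed the fold in advance and the count is no support. Higher than in each of T cells, NK cells, macrophages and B cells were 0.499% of 11823 genes with at least 10 UMIs over these classes and ILCs in each library, and 3 of 4 members tested. Of these members, Il17rb reached 10 UMIs in the male library only with the UMIs of ILCs. Il5, Il13 and Areg had too few UMIs to be tested, and Il4 did not reach this fold. With 1 library per sex these are counts past a fold and not tests.

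The cytokine genes that define the output of the program were near the limit of detection. Il5 (ENSMUSG00000036117; chromosome 11, 53720794 to 53725106, plus strand), the eosinophil survival factor, gave 6 UMIs in 4 cells in each library. In ILCs these were 1 UMI in 1 of 58 female cells and 5 UMIs in 3 of 42 male cells, and with cells assigned by likelihood they were 5 (22.7 CPM) and 6 UMIs (37.3 CPM). Il13 (ENSMUSG00000020383; chromosome 11, 53631324 to 53634702, minus strand) had 0 UMIs in the ILCs of both libraries, which allows up to 18.4 CPM in the female and 24.3 CPM in the male ILCs. Its only UMIs in all cells used were 1 in a female T cell and 5 in 1 female cell of the B cell gate. Areg (ENSMUSG00000029378; chromosome 5, 91139599 to 91148432, plus strand), which encodes the growth factor amphiregulin, gave 1 UMI in a female ILC, 1 in a female NK cell and 0 in the male library. The transcripts of these genes were thus not detectable in most ILCs at this depth, which does not show that they were absent.

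The cells with these cytokines could be listed one by one. Of the 11 cells with a UMI of Il5, Il13 or Areg, 5 were gated ILCs, and 8 were nearest to ILCs by their profile over all genes except the members (these 5, 1 cell of the B cell gate and 2 cells of no gate). The female cell of the B cell gate had 4793 UMIs, with 6 of Gata3, 1 of Il1rl1, 3 of Il5 and 5 of Il13. This 1 cell carried 6 of the 11 Gata3 UMIs of the female B cell gate. A female cell of the T cell gate had 4 UMIs of Il1rl1 and 1 of Il5, and the male ILC with the most Il5 had 3 UMIs of it beside 1 of Il1rl1. Gm12214 overlaps Il5 on the opposite strand.

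Il4 (ENSMUSG00000000869; chromosome 11, 53602982 to 53618669, minus strand), the cytokine of T helper 2 cells, lies 12654 bases from Il13 in the type 2 cytokine locus. T cells held most of its UMIs, with 112 in 46 of 627 female cells (41.2 CPM; 33.9 to 49.6) and 25 in 22 of 344 male cells (17.9 CPM; 11.6 to 26.4). Per UMI it was highest in mast cells in the female library, with 11 UMIs in 5 of 25 cells (154 CPM; 77.1 to 276). The 6 male mast cells held 1 UMI (62.8 CPM; 1.59 to 350), which gives no rank among the classes. Without the cells with basophil markers, female mast cells held 8 UMIs in 4 cells. ILCs held 2 and 3 UMIs, or 12.3 and 24.3 CPM, NK cells 1 and 0, and B cells 1 in each library.

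Among T cells, Il4 had 0 UMIs in the 200 female and 105 male CD8 T cells. Gamma delta T cells, gated without excluding Trac, held 49.3 CPM (19 UMIs in 15 of 77 cells) in the female library. In the male library they held 48.0 CPM (13 UMIs in 10 of 61 cells), and CD4 T cells held 3 UMIs in each library. T cells that fell in none of these subsets held 90 of the 112 female UMIs (84.1 CPM, in 28 of 270 cells), 46 of them in 1 cell, and 9 of the 25 male UMIs (18.8 CPM, in 9 of 135 cells). T cells with a UMI of Zbtb16, which encodes the factor PLZF of innate-like T cells, held 195 CPM in the female and 17.8 CPM in the male library, a split chosen after the Il4 counts were seen. That female value came mostly from the same cell, which held 46 Il4 UMIs among 13695 UMIs in all. The next cell held 6, and the highest male T cell held 2. Without the top cell of each library, Il4 in all T cells stood at 24.4 CPM in the female and 16.5 CPM in the male library.

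**Figure D3:**
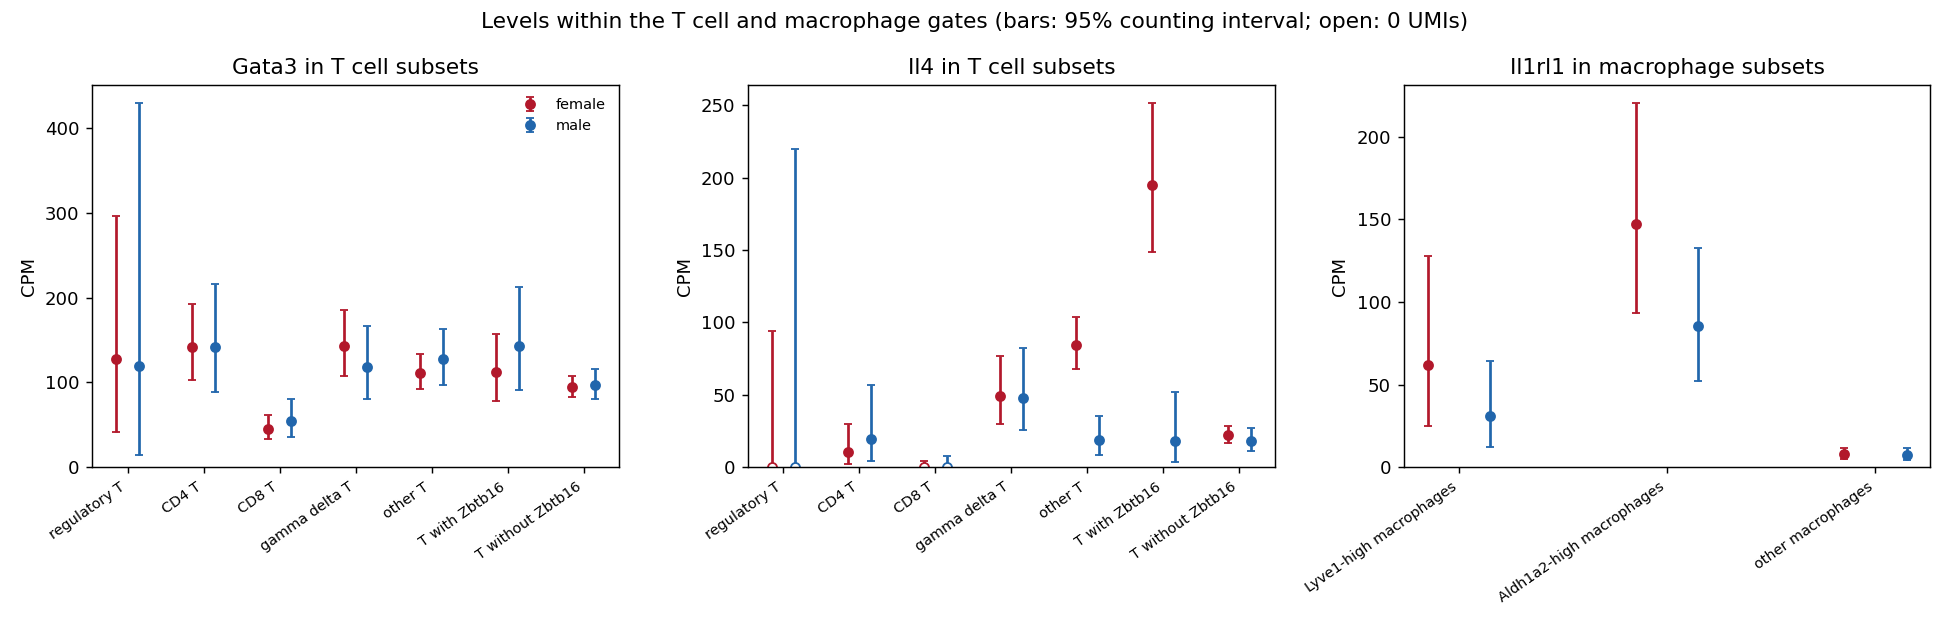
Level in CPM of Gata3 and Il4 in T cell subsets and of Il1rl1 in macrophage subsets, with 1 point per library, bars for the 95% counting interval and open points for 0 UMIs. The split by Zbtb16 crosses the other T cell subsets. Gata3 was lowest in CD8 T cells (45.3 and 54.7 CPM), Il4 was at 0 in them, and Il1rl1 stood at 147 and 85.7 CPM in Aldh1a2-high macrophages, with intervals that overlapped those of Lyve1-high macrophages.

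The genes were also read cell by cell, since the members could be carried by the same or by separate ILCs. Gata3 and Il1rl1 were detected together in 37 of 58 female and 25 of 42 male ILCs. Gata3 without Il1rl1 was seen in 6 cells and Il1rl1 without Gata3 in 8 cells of each library. All 7 female and all 5 male ILCs with Il17rb had Gata3, and 5 and 4 of them had Il1rl1. At least 1 of the 7 genes was seen in all but 7 female and 2 male ILCs, and no ILC had more than 3. Cells with a Gata3 UMI were deeper than those without, with medians of 2347 against 2105 UMIs in the female and 2846 against 1743 in the male library.

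Mast cells showed another combination. Il1rl1 was present in 23 of 25 and 6 of 6 cells, whereas Gata3 and Il17rb had 0 UMIs in every one of them. All 5 female mast cells and the 1 male mast cell with Il4 also had Il1rl1. In the T cell gate, 68.9% of female and 68.6% of male cells had none of the 7 genes.

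**Figure D4:**
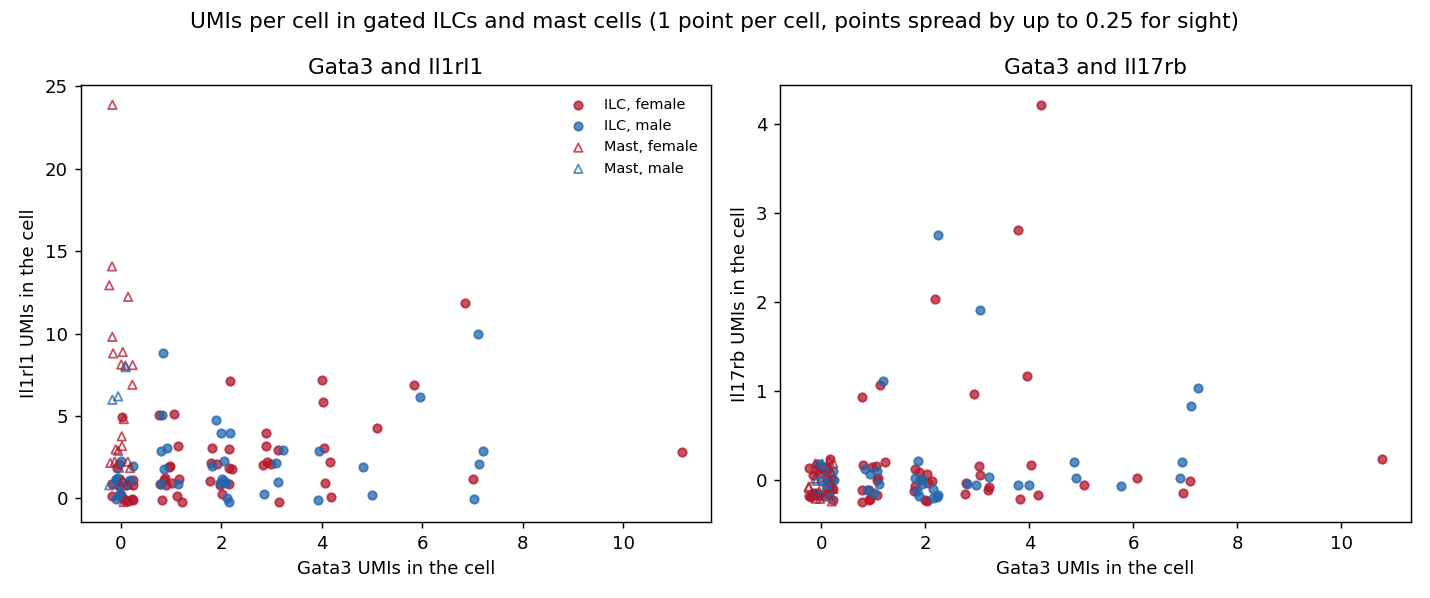
UMIs of Gata3 against those of Il1rl1 and of Il17rb in each gated ILC (filled circles) and mast cell (open triangles) of the female (red) and male (blue) library, with points spread slightly so that cells with equal counts can be seen. ILCs carried up to 11 Gata3 UMIs, mostly together with Il1rl1, and mast cells carried up to 24 Il1rl1 UMIs with 0 of Gata3 and Il17rb.

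Between the sexes, 3 of the 7 members had enough UMIs to be compared in ILCs. The share of genes at least 2-fold higher in the female ILCs was 9.93% of 4199 genes with at least 10 UMIs over both libraries, and the share at least 2-fold higher in the male ILCs was 7.98%, and 0 of the 3 members tested were among them. The female to male ratio was 0.952 for Gata3 (0.719 to 1.26), 1.07 for Il1rl1 (0.806 to 1.42) and 1.23 for Il17rb (0.472 to 3.42). These intervals leave room for a difference of up to 1.42-fold for Il1rl1 and 3.42-fold for Il17rb. Il5 (1 and 5 UMIs) and Il4 (2 and 3 UMIs) were too sparse for a comparison. In mast cells, where 3% of 1400 genes were past 2-fold in the female direction and 12% in the male direction, the Il1rl1 ratio was 1.41 (0.911 to 2.26). Il4, the other member tested there, had 11 and 1 UMIs and a ratio of 2.46 (0.357 to 106). It was not counted as past 2-fold, since a count under 3 was set to 3. In NK cells the Gata3 ratio was 0.766 (0.626 to 0.939), lower in the female library but not past 2-fold.

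In T cells, 2.51% of 10157 genes were past 2-fold in the female direction and 2.97% in the male direction. Il1rl1 and Il4 were past 2-fold in the female direction, 2 of 4 members tested. The Il4 ratio of 2.30 (1.48 to 3.71) became 1.48 (0.907 to 2.49) without the T cell with the most Il4 in each library, so it rested on the female cell with 46 UMIs. The Il1rl1 ratio of 4.63 (1.66 to 17.9) became 5.31 (1.66 to 27.2) without the top cell of each library. It rested on few cells, since 22 of the 36 female UMIs lay in 5 cells. Without the 5 top cells of each library, 14 female and 0 male UMIs were left, with a lower limit of 1.70 for the ratio. The 4 male UMIs lay in 4 cells, so leaving out 5 cells fixed the male count at 0. When cells were assigned by likelihood over all genes except the members, neither gene was past 2-fold, with ratios of 1.42 (0.583 to 3.97) for Il1rl1 and 1.65 (1.10 to 2.55) for Il4.

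Other lymphoid and type 2 genes were read from a list of 57 genes, which also names type 1 and type 17 genes such as Ifng, Tbx21 and Il17a, and of which 40 could be tested against T cells, NK cells, macrophages and B cells together. At least 4-fold higher in ILCs than in each of these classes were 2 (0.499% of all genes tested), Csf2 and Ltb4r1. Csf2, which encodes the growth factor GM-CSF, stood at 172 CPM in female and 138 CPM in male ILCs against 9.20 and 10.7 CPM in T cells. Ltb4r1, a leukotriene B4 receptor, stood at 356 and 235 CPM against 15.5 and 18.6 CPM. Against T cells alone, 4 of 31 genes tested were higher (Csf2, Cysltr1, Ltb4r1 and Cd81; 1.25% of all genes tested) and 1 was lower (0.554%), Tcf7, at 55.2 and 24.3 CPM in ILCs against 286 and 228 CPM. In the male library Cysltr1 reached 10 UMIs only through ILCs (18 UMIs, against 0 in T cells). Against NK cells, 6 of 30 were higher (1.15% of all genes tested) and 2 were lower (0.971%), Ifng and Tbx21. Of the higher genes, Cysltr1 (1 UMI in male NK cells) and Ltb4r1 (8) reached 10 UMIs in the male library only through ILCs. The alarmin genes Il33 and Il25 had 0 UMIs in ILCs, as had the cytokine gene Il9.

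The genes whose pattern was most like that of a member were taken by Pearson's r of log2(CPM + 10) over 22 points, the 11 gated classes of both libraries, among genes with at least 20 UMIs in each library in the class where the member was highest. These were 795 genes for Gata3 and Il17rb (ILCs) and 117 for Il1rl1 (mast cells), so the values cannot be ranked between members. The most alike for Gata3 were Tcrg-C4 (r = 0.99), Cish (r = 0.94) and Bcl11b (r = 0.93). For Il17rb they were Ccdc184 (r = 0.93), Rnf128 (r = 0.81) and Tcrg-C4 (r = 0.78). For Il1rl1 they were Mcpt2 (r = 0.71), Ccl2 (r = 0.69) and Rgs1 (r = 0.68). Points of 1 library share their depth and free RNA, and the values are descriptions over classes.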

How the data were processed

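Single-cell 3' RNA-seq libraries were prepared from sorted adrenal CD45+ cells of female and male mice. The deposited values are UMI counts per gene and barcode: per the file headers and labels, the authors counted reads with Cell Ranger 4.0.0 on mm10 and removed low-quality barcodes with DropletUtils. The files still hold barcodes that the mitochondrial ceiling of 1.2% in the study's methods would remove, since it keeps 8.40% of female and 13.6% of male barcodes. The study's stated cell numbers are far above that, so the scale of this ceiling is unclear. Here, barcodes with at least 200 genes and at most 15% mitochondrial UMIs were kept (3817 female, 2502 male). Scrublet (scanpy 1.11.5) marked only 2 female and 10 male barcodes, so the highest scores were removed at 0.8% per 1000 barcodes (124 and 52 of those kept).

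Gates asked for 3 detected markers (4 for macrophages, 2 for dendritic cells, and 5 UMIs in all for mast cells), with limits on markers of other lineages. The numbers of markers were set on marker counts after the files had been seen. UMIs were summed per class and library as CPM with exact Poisson intervals. Shares carry Clopper-Pearson intervals, and ratios exact conditional binomial intervals. A count of 0 was read as up to 3 counts. The fold rule and intervals were tested on simulated data. Alternatives were other mitochondrial ceilings, no doublet removal, stricter gates, assignment by multinomial likelihood, another draw, a mean over cells and leaving out the top cells. The 7 members, the marker lists, the 57 listed genes and the rule for like genes were chosen with earlier results of these data known. A further member and a listed marker are not reported here. Gene positions are from GENCODE M21 (GRCm38).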

Additional observations from a re-analysis of the deposited data

Results flagged for a closer look

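For Il4 the ratio of ILCs to T cells differed between the libraries. It was 0.298 (0.0356 to 1.10) in the female library and 1.36 (0.263 to 4.45) in the male library. Both intervals include equal levels and they overlap, so neither library gives an order. The female T cell level was 41.2 CPM, and 24.4 CPM without the T cell with the most Il4. The difference was not tested, and the ILC side rested on 2 and 3 UMIs.

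Cells that entered no gate, and that the comparisons therefore did not use, also held members above the limit of 3 counts. Gata3 had 112 UMIs in the female and 50 in the male cells without a gate. Il1rl1 had 95 and 79, and Il4 had 4 and 7. By likelihood over all genes except the members, 13 female and 12 male of these cells were nearest to ILCs, and they held 18 and 13 of the Gata3 UMIs. Cells nearest to NK cells held more of them, 54 and 19, and cells nearest to T cells held 36 and 14. Of the Il1rl1 UMIs, 44 female and 21 male lay in cells nearest to dendritic cells, and 25 and 39 in cells nearest to macrophages.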

How the results depend on the processing

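Of 222 alternative values, 188 stayed within the counting interval of the value reported (for a count of genes, within 1.5 times) and 34 moved out of it. A mitochondrial ceiling of 5%, no doublet removal, 1 more marker in each gate and a mean over cells moved none out of its interval, although the female Il17rb share after the draw ranged from 1.33% to 8.77% over these and other settings with a draw. The ceiling of 1.2%, whose scale is unclear, left 13 female and 6 male ILCs, in which Gata3 was 908 CPM in the female cells, Il1rl1 was 1025 and 336 CPM, and Il17rb was 29.3 CPM and 0 CPM. Without the draw, Gata3 was detected in 74.1% of female and 73.8% of male ILCs, and Il1rl1 in 77.6% and 78.6%. With 500 UMIs drawn, Gata3 was detected in 22.4% of female ILCs and Il1rl1 in 29.3% and 31.0%, since fewer UMIs per cell detect fewer genes. Assignment by likelihood gave 79 female and 62 male ILCs and put the Il13 UMIs of the female B cell gate into ILCs (22.7 CPM) and raised Il5 in female ILCs from 6.13 to 22.7 CPM, within its interval. It also gave Il1rl1 in T cells as 6.73 CPM in the female and 4.73 CPM in the male library, and ended the 2-fold difference between the sexes for Il1rl1 (ratio 1.42) and Il4 (1.65). Alternatives chosen after seeing the data left out top cells of T cells or macrophage subsets or basophil-marked cells, or assigned T and B cells by likelihood. No paired analysis was possible because each sex had 1 library and the results come from no test. Basophils and mast cells could not be joined as an alternative, since the mast gate already held both. Depth limits Il5, Il13 and Areg, and the number of cells limits the mast-cell values of the male library.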
